A study of Mus musculus with 18 samples.

Results

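The regions described here are 563 stretches of H3K9me3, a repressive mark on histone H3, in mouse embryonic stem (ES) cells. They were listed in wild-type (WT) cells, were still overlapped by a listed H3K9me3 region after knockout (KO) of Trim28, and held a peak of the KAP1 protein in WT cells. KAP1 is the product of Trim28. Of 37002 WT H3K9me3 regions, 48.5% overlapped a KO region by 1 bp or more and 2.38% overlapped a KAP1 peak by 1 bp or more. The 563 regions that met both conditions, the members, were 1.52% of all WT regions. A further 17382 regions were retained without a KAP1 peak, 316 had a KAP1 peak and no KO region, and 18741 had neither. The members were chosen by the positions of WT H3K9me3 regions, KO H3K9me3 regions and WT KAP1 peaks. Comparisons drawn from those 3 lists are therefore descriptions, and no test was made on them.

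The study compared cells with and without Trim28. Its labels describe 18 libraries. Used here were RNA values of 4 of them and 6 deposited lists of regions or peaks. Each condition was 1 library or 1 list, so no spread between replicates and no p-value could be had. Immunoprecipitations were made in duplicates or triplicates and RNA came from pooled duplicates, per the labels, but the deposited values do not keep them apart. KO ES3 cells, an ES line of the C57BL/6 strain, were taken 4 days after a Cre recombinase induced by 4-hydroxytamoxifen (4-OHT). WT ES3 cells were cultured for 4 days without that step being named. Both were grown in serum with LIF. KO mouse embryonic fibroblasts (MEFs) of the C57BL/6 strain were taken 5 days after the same induction, and WT MEFs were cultured for 5 days. The KO arises in a culture and not in an animal, and the labels remark that at this stage H3K9me3 was reduced in KO cells without being gone. H3K9me3 was precipitated with an Abcam antibody and KAP1 with a rabbit polyclonal serum. Rex1GFP cells, H3K27ac and the input libraries were not analysed here.

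KAP1 does not bind DNA by itself. KRAB zinc finger proteins carry it to chosen sequences, and KAP1 there recruits SETDB1, which methylates histone H3 at lysine 9, and HP1 proteins, which bind the methylated tail. In ES cells this system is known for keeping endogenous retroviruses silent and for keeping H3K9me3 on the methylated allele of imprinting control regions, where ZFP57 is the zinc finger protein. Large families of zinc finger genes carry the mark over their own bodies.

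The sequence of the regions was not read, because the files use the mm9 build and no mm9 genome was used here. The sequences shown are the 250 bases before the start of 5 genes that the results turn on, from RefSeq on build GRCm38.p6, whose coordinates differ from those of mm9. The members covered the mm9 starts of Nnat, Ept1 (now Selenoi), Meg3 and Zfp979, and a member lay 2146 bp from the start of Serinc3. These genes were chosen after their values were seen. Capitals mark a match to TGCCGC or its reverse complement GCGGCA, the core that ZFP57 is known to bind in mouse. For Meg3, which has 2 windows in the table, the more upstream one is shown.
Nnat, chr2:157559828-157560077, plus strand: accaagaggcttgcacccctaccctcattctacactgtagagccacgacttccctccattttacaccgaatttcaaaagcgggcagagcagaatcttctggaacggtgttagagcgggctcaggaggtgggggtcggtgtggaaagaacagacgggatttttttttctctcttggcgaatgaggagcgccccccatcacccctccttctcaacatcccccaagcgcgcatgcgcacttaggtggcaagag
Selenoi, chr5:30232331-30232580, plus strand: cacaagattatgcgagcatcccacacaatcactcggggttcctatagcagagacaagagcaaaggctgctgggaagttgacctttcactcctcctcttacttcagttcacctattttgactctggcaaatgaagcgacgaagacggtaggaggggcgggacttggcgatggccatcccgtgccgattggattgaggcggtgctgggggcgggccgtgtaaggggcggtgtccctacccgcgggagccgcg
Meg3, chr12:109540746-109540995, plus strand: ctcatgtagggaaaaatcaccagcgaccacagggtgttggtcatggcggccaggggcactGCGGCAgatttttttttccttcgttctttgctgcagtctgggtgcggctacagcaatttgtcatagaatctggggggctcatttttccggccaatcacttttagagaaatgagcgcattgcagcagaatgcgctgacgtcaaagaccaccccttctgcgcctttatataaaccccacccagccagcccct
Zfp979, chr4:147642509-147642758, minus strand: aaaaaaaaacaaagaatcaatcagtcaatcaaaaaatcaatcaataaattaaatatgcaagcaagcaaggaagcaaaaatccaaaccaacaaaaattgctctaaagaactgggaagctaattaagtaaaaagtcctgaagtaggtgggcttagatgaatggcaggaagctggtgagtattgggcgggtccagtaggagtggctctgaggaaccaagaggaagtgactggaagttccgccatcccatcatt
Serinc3, chr2:163645144-163645393, minus strand: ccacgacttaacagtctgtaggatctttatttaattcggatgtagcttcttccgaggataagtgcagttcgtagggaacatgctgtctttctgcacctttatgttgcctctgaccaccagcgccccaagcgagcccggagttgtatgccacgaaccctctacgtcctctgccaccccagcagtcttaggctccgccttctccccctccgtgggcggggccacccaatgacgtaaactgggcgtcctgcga

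The Meg3 window held 1 match and the other 4 windows held none. Across 32851 windows of 250 bases before gene starts, 8.68% held TGCCGC on either strand. Of 194 windows of genes whose start lay within 20 kb of a member, 14 held it (7.22%), which is near the share over all windows. The match describes letters and not a site of binding. G and C made up 54.8% of the Nnat window, 58.4% of Selenoi, 52.4% of Meg3, 39.6% of Zfp979 and 56% of Serinc3. CpG dinucleotides, the bases that carry DNA methylation, numbered 12, 17, 10, 2 and 15 in the same order. The Zfp979 window stood apart as poor in CpG.

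Trim28 RNA stood at 37.2 RPKM in KO ES3 cells, against 1051 RPKM in WT ES3 cells, which is 3.54% of the WT value. RPKM are read counts divided by transcript length and by library size. All 10 ES cell markers, Pou5f1 and Nanog among them, were at 1 RPKM or more in both ES3 libraries, with summed levels of 1310 RPKM in KO and 2556 RPKM in WT. With 1 RPKM added to both values, 5 of the 10 were at least 2-fold lower in KO and none was 2-fold higher. Their median log2 ratio was -1.04. Over all genes at 1 RPKM or more in either ES3 library, 3.18% were 2-fold lower. The KO region list held 37221 regions over 38138 kb and the WT list 37002 regions over 45204 kb. The lists were uneven on 3 chromosomes: chromosome 1 had 2285 KO and 3918 WT regions, chromosome 6 had 3901 KO and 1864 WT regions, and chromosome 14 had 3196 KO and 1572 WT regions. Leaving out those chromosomes kept 470 members, whose median KO coverage was 73.9%.

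Members were wide. Their median width was 3106 bp, with quartiles of 1502 and 5954 bp and a range of 133 to 67349 bp. Regions retained without a KAP1 peak had a median of 923.5 bp, those with a KAP1 peak and no KO region 1286 bp, and those with neither 577 bp. The members thus held 2888 kb, or 6.39% of the bases of all WT regions. A wide region overlaps other lists more often by its width alone, so regions of like width were set side by side.

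Within each width class above 500 bp, the share retained was lower in WT regions with a KAP1 peak than in those without one, a difference that was not tested. Among regions of 1000 to 2000 bp, 49.7% of 195 with a KAP1 peak were retained (Wilson 95% interval 42.8 to 56.7), against 57.2% of 7564 without. At 2000 to 5000 bp the shares were 71.0% of 286 regions with a peak (65.5 to 75.9) and 78.0% of 3867 without. At 5000 to 10000 bp they were 89.2% of 120 with a peak (82.3 to 93.6) and 96.0% of 630 without. Above 10000 bp they were 98.6% of 70 with a peak (92.3 to 99.7) and 99.4% of 174 without. From 500 to 1000 bp they were 38.1% of 126 with a peak (30.1 to 46.8) and 42.9% of 12681 without. In both of these classes the interval held the share without a peak. Up to 500 bp the order was the other way, with 47.6% of 82 regions with a peak (37.1 to 58.2) and 34.1% of 11207 without. That class held 39 members, of which 14 had a peak that was also called in KO chromatin (2.45% of all KAP1 peaks were). Intervals cover counting error only.

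**Figure D1:**
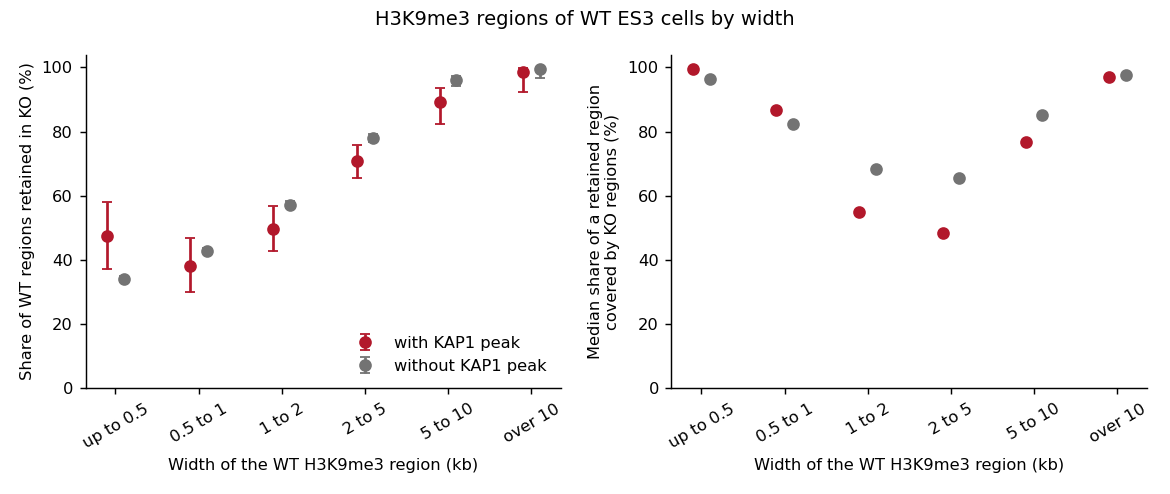
Left, the share of WT H3K9me3 regions retained in KO cells (percent, bars are Wilson 95% intervals) by width class in kb; right, the median percent of a retained region covered by KO regions. Red points are regions with a KAP1 peak and grey points those without; from 1 to 10 kb the red points lie under the grey ones in both panels.

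Retention was partial in most members. KO regions covered a median of 73.8% of a member, with quartiles of 39.5% and 95.7% and a range of 2.40% to 100%. In regions retained without a KAP1 peak the median was 82.2%. Of the members, 145 were at least 95% covered (25.8%, against 34.6% of retained regions without a peak) and 67 were under 25% covered (11.9%, against 6.50%). Summed over bases, 74.9% of members and 71.4% of the others were covered, and the members above 10000 bp weigh most in that sum. By width, the median coverage of members was 99.5% up to 500 bp, 86.7% from 500 to 1000 bp, 54.9% from 1000 to 2000 bp, 48.3% from 2000 to 5000 bp, 76.6% from 5000 to 10000 bp and 96.9% above that. Retained regions without a peak stood at 96.5%, 82.4%, 68.5%, 65.6%, 85.1% and 97.8% in the same order. The gap between both sets was widest, at lower coverage of members, from 1000 to 5000 bp, and in the 2 narrowest classes members were the more covered.

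The remaining mark often stopped short of the edges. In 432 members a single KO region remained, 101 held 2 and 30 held 3 or more. At matched width the share with a single one was near that of retained regions without a peak: 95.9% of members and 97.5% of the others at 1000 to 2000 bp, 78.3% and 82.9% at 2000 to 5000 bp, and 56.1% and 55.9% at 5000 to 10000 bp. In 302 members (53.6%) the KO regions ended inside the WT region on both sides, in 166 they ran past 1 edge and in 95 past both. Members were split into 10 equal segments. In those of 2000 to 5000 bp, KO regions covered 34.0% of the 2 outermost segments and 60.4% of the 2 middle ones. Retained regions of that width without a peak stood at 49.0% and 68.5%. At 1000 to 2000 bp the values were 42.5% and 69.1% in members and 49.3% and 75.8% without a peak, and at 5000 to 10000 bp 52.9% and 78.6% in members and 63.4% and 78.9% without a peak. Lower coverage at the edges was thus seen in both sets, and the edges of members were the less covered.

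The H3K9me3 that remained covered more of the KAP1 peak itself than of the rest of the member. KO regions covered 83.1% of all KAP1-peak bases inside members and 73.3% of the other bases. Of 528 members with bases of both kinds, 348 were more covered inside the peak, 121 less and 59 equally, and the medians per member were 100% inside the peak and 63.7% outside it. Leaving out the 36 members whose peak was also called in KO chromatin, the base shares were 79.6% and 72.7%, the counts 338, 120 and 53 of 511, and the medians 100% and 61.1%. Over all 528 members with bases of both kinds, the peak bases were wholly covered in 270 and not covered at all in 62. The peaks sat near the middle, with their centres a median of 52.2% along the member, and the middle was also the better covered part. Bases of the 407 members of 1000 to 10000 bp were therefore also split by position, pooled over members of differing width. In the 2 outermost segments, 70.7% of peak bases and 40.6% of other bases were covered, and in the 2 middle segments 76.6% of peak bases and 68.3% of other bases. Without the same 36 members, the values were 67.5% and 40.3% at the edges and 75.6% and 68.1% in the middle, over 394 members. Peak bases were the more covered at both positions, by more at the edges. These values come from the lists that chose the members. Regions with a peak and no KO region were left out by that choice, and the difference was not tested.

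**Figure D2:**
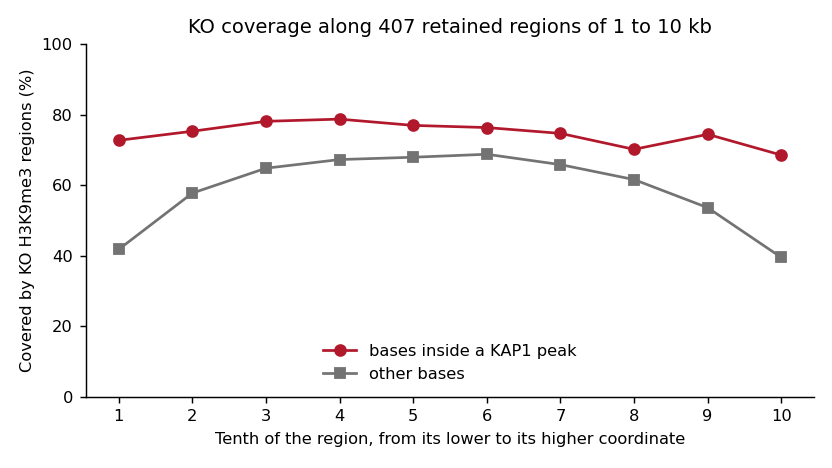
Percent of bases covered by KO H3K9me3 regions in 10 equal segments of 407 members of 1 to 10 kb, from the lower to the higher coordinate. Red, bases inside a KAP1 peak; grey, other bases; the red line stays near 70% to 80% along the whole region and the grey one drops to about 40% at both ends.

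Seen from the peak, the mark fell away on both sides in both lists. Within 500 bp left of the centre of the strongest peak, KO regions covered 68.3% and WT regions 87.4% of bases, and to the right 65.9% (KO) and 85.3% (WT). From 1500 to 2000 bp the values were 32.9% (KO) and 49.0% (WT) on the left and 33.9% (KO) and 49.5% (WT) on the right. From 3500 to 4000 bp they were 26.6% (KO) and 33.1% (WT) on the left and 26.8% (KO) and 35.0% (WT) on the right. As a share of WT coverage, KO coverage was 77.3% to 78.2% at the centre, 67.1% and 68.6% at 1500 to 2000 bp, and 80.4% and 76.6% at 3500 to 4000 bp. As a share of WT coverage, the shortfall was thus larger at 1500 to 2000 bp than at the centre, and at 3500 to 4000 bp it was near that of the centre. In percent of bases, the gap between both lists was wider at the centre than at either of those distances. In the 527 members without a peak in KO chromatin, KO and WT regions covered 67.8% and 88.3% within 500 bp on the left and 66.4% and 86.9% on the right, and 32.9% and 50.1% on the left and 34.2% and 50.2% on the right from 1500 to 2000 bp.

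**Figure D3:**
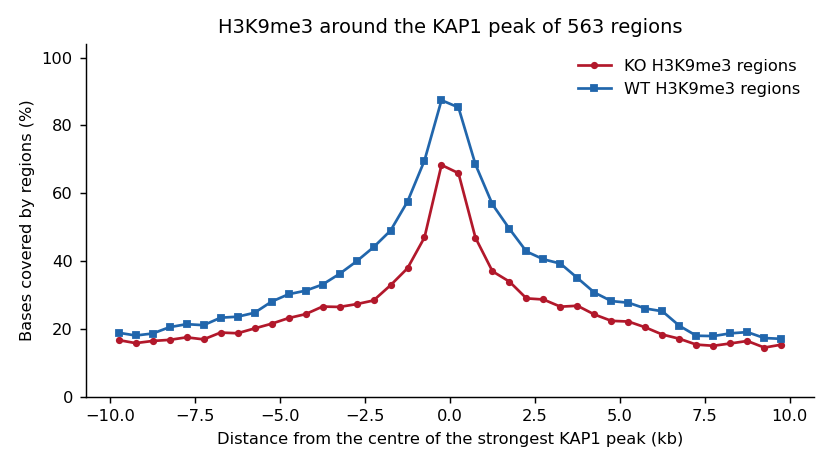
Mean percent of bases covered by KO (red) and WT (blue) H3K9me3 regions in bins of 500 bp around the centre of the strongest KAP1 peak of each of 563 members. Both curves are highest at the centre, and the KO curve lies under the WT curve out to 10 kb.

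The KAP1 peaks in members numbered 627, or 20.2% of 3099 peaks called in WT cells over input. Most members, 519, had 1 peak, 32 had 2, 8 had 3 and 4 had more. The authors gave each peak a score whose scale is not stated. It describes peaks within 1 list, where the lowest value was 50.01. The median score was 69.2 for peaks in members, 72.1 for peaks in regions found in WT only and 57.6 for peaks outside WT H3K9me3 regions. The authors also called peaks in WT chromatin against KO chromatin, and in KO chromatin. These lists were not used to choose members. Of the 627 peaks, 362 were also called against KO chromatin (57.7%, Wilson 95% interval 53.8 to 61.5), close to the 58.1% of all 3099 peaks. Among 318 peaks in WT-only regions it was 69.5% (64.2 to 74.3). A peak called against KO chromatin has more KAP1 signal in WT than in KO cells.

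A small set of members had a peak that was also called in KO chromatin. Of the 627 peaks, 42 were also called there (6.70%, 4.99 to 8.93), against 2.45% of all peaks and 5 of 318 in WT-only regions (1.57%). They lay in 36 members, which had a median width of 935 bp, a median KO coverage of 100% and a median top score of 148.3. The 527 other members had 3141 bp, 69.3% and 69.2. Of the 36 members, 2 also had a peak called against KO chromatin. KO cells kept 3.54% of the WT level of Trim28 RNA, and whether peaks in KO chromatin mark KAP1 was not tested. The values by position in the member and around the peak are therefore also given without the 36 members.

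The top of the score order was made of such regions. The 3 highest members were chr2:98506322-98507513 (score 1794.1), chr2:98502315-98503169 (1142) and chr9:35112725-35113198 (958.5). All 3 were wholly covered by KO regions and called in KO chromatin, with scores of 3100, 2734 and 1706 in that list, and none was called against KO chromatin. The member chr9:2999930-3042416 (775.1), of 42487 bp with 7 peaks, was likewise wholly covered and called in KO chromatin, with a score of 1424 there, and not against it. The other 4 of the 8 highest were called against KO chromatin. The region chr17:6939152-6956486 (913.0), in the bodies of Ezr, a linker of membrane and actin, and Sytl3, held 6 peaks over 17335 bp and was 27.6% covered. The region chr13:64269564-64276180 (783.7), in the body of Habp4, was 55.4% covered. The region chr14:68738433-68739572 (777.9), in the body of Nefm, was wholly covered. The fourth, chr2:157385720-157386016 (851.8), spans the start of Nnat, was wholly covered, and was called against KO chromatin and also in KO chromatin, where its score was 78.4.

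Score and retention were nearly unrelated across members. Spearman's rho between the top peak score and KO coverage was -0.053 over 563 members and -0.12 over the 527 without a peak in KO chromatin. These points share 1 KAP1 list and 1 KO list. The 141 members with the lowest scores (50.1 to 57.1) had a median coverage of 75.8%, and the 141 with the highest (104.3 to 1794.1) 74.0%. Of those with the highest scores, the 120 without a peak in KO chromatin stood at 60.4%, with quartiles of 27.2% and 87.3%. Being called against KO chromatin went with score, with 113 of 141 members (80.1%) at the highest scores and 60 of 141 (42.6%) at the lowest.

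**Figure D4:**
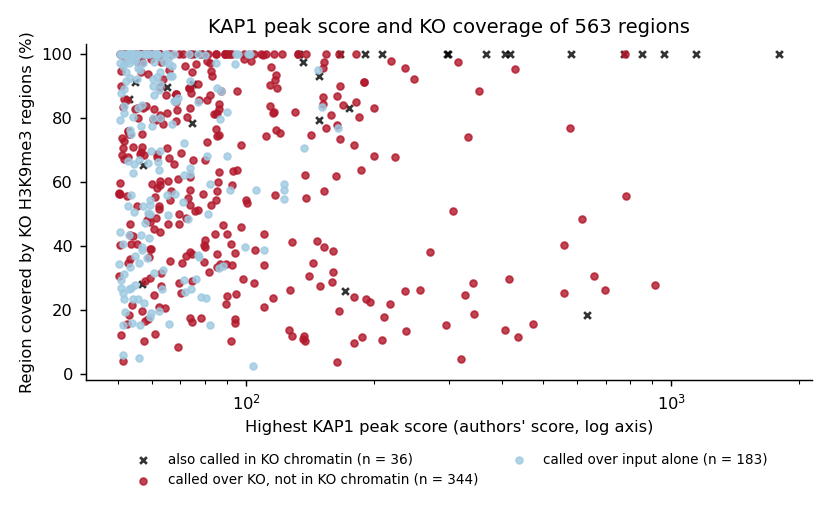
The highest KAP1 peak score of each member (authors' score, log axis) against the percent of the member covered by KO H3K9me3 regions. Black crosses are 36 members called in KO chromatin, most of them at or near 100%, red points 344 called against KO chromatin and not in it, and light blue points 183 called over input alone.

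The widest members were wholly or nearly wholly covered by KO regions. They were chr8:19937381-20004729 (67349 bp, over Gm15319), chr8:19683807-19739820 (56014 bp, over 4930467E23Rik), chr17:13551782-13596133 (44352 bp, over Tcp10c), the chromosome 9 region named above, chr1:85175455-85214097 (38643 bp, over Csprs) and chrX:3194992-3228890 (33899 bp). KO coverage ran from 96.9% to 100% in these 6. Apart from the chromosome 9 region, their top scores were low, between 50.5 and 84.9. At the other end, the member with the fewest bases under KO regions was chr1:162816311-162819227, with 70 of 2917 bp, and the next shared 85 and 105 bp. The nearest WT-only regions with a KAP1 peak lay 214, 242 and 269 bp from a KO region. The fewest bases shared with a peak were 18 and 41 bp, and the nearest retained regions without one lay 49 and 60 bp from a peak. Within 1 kb of a KO region lay 24 of the 316 WT-only regions with a peak.

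Members were unevenly spread. Chromosome 12 held 65 members, or 11.5% of them against 6.08% of all WT regions, chromosome 4 held 52 (9.24% against 6.61%) and chromosome 17 held 43 (7.64% against 4.09%). Chromosome 1 also held 43, but 10.6% of WT regions, X held 10 (1.78% against 4.30%) and Y none. Of the WT regions with a KAP1 peak, 87.8% were retained on chromosome 12 and 82.7% on chromosome 17. Windows of 1 Mb with 3 or more members numbered 32 and held 143 members (25.4%). The fullest were chr12:24000001-25000000 with 9 members and chr12:20000001-21000000 and chr12:23000001-24000000 with 8 each. No gene of the RNA tables started in those 3 windows, and the body of 2410018L13Rik alone reached into the last of them. Their median KO coverage was 98.3% to 99.7%. Some members of chromosome 12 had the same width, top score and KO coverage. The members chr12:23576057-23586785 and chr12:23926653-23937381 both had 10729 bp, a score of 132.6 and 99.7% coverage. Their sequence was not read, so the members of these windows are not shown to be independent, and counts on chromosome 12 carry that limit. The next fullest window, chr17:6000001-7000000, held 8 members and 8 gene starts, among them those of Ezr and Tmem181a.

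Other full windows held genes of large families. The window chr4:146000001-147000000 held 6 members of 94.0% median coverage and the starts of 8 genes, 5 of which are zinc finger genes by symbol or annotation. The windows chr2:177000001-178000000, chr4:147000001-148000000 and chr7:50000001-51000000 held 4, 4 and 5 members, and zinc finger genes were 4 of 7, 4 of 27 and 4 of 17 genes there. The window chr4:60000001-61000000 held 6 members among the Mup genes, which encode the major urinary proteins. How reads from such near-identical copies were placed is not given in the sources used here, so the position of members there is less certain.

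Over genes, members overlapped a gene body in 125 cases (22.2%, 19 to 25.8), against 15.3% of retained regions without a peak and 39.9% of WT-only regions with one. A gene start lay within 20 kb of 159 members (28.2%, 24.7 to 32.1), against 16.3% of retained regions without a peak and 34.8% of WT-only regions with one. In 17 members (3.02%) the start lay inside, against 0.656% of retained regions without a peak and 1.27% of WT-only regions with one. Members were several times wider than retained regions without a peak, which by itself can raise each of these shares.

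Genes near members were then read in the RNA tables. Of 196 genes whose start lay within 20 kb, 137 were measured in ES3 cells, meaning at 1 RPKM or more in KO or WT. Ratios are log2((KO + 1)/(WT + 1)) in RPKM, which understates the change of low genes. At 2-fold or more, 26 genes were higher in KO (19%, 13.3 to 26.4) and 5 were lower (3.65%), against 12.5% higher and 3.18% lower over all 12024 measured genes. The median log2 ratio was 0.44 near members and 0.08 over all measured genes. Of the 26 higher genes, 9 were under 1 RPKM in WT and passed the filter only through KO, so their count is a description. The 137 genes lay near 102 members and the 26 higher ones near 21. The interval does not allow for genes that share a member. The share near regions retained without a KAP1 peak was much the same, with 206 of 1094 genes higher (18.8%) and 27 lower. Near WT-only regions with a peak, 14 of 107 were higher (13.1%, 7.96 to 20.8) and 4 lower. The median log2 ratios of those last 2 sets were 0.20 and 0.16. It was also alike near members under 50% covered, with 13 of 67 higher, and near the others, with 13 of 70.

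KO ES3 cells also showed markers of other cell types. All 11 primitive endoderm markers were at least 2-fold higher, with summed levels of 1439 RPKM in KO and 66.0 RPKM in WT, and none was listed at 0. Of 6 trophectoderm markers in the table, 5 were measured and all 5 were higher, with sums of 360.7 RPKM in KO and 12.8 RPKM in WT. The part of these cells in the ratios near members was not tested. In such bulk libraries more cells of a type and more RNA per cell cannot be told apart.

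The largest ratio near a member belonged to Nefm, which encodes the medium neurofilament chain of neurons, with 13.2 RPKM in KO and 0.451 RPKM in WT (log2 ratio 3.29). The member lay 3331 bp from its start and was wholly covered by KO regions. Next came Gm13043, Gm13040 and Gm13057 of the Pramel family, with 6.36, 6.25 and 6.25 RPKM in KO and listed at 0 in WT. The last 2 have the same position and all 3 start within 1 bp of each other, so they count as 1 place with shared reads. Cdh5, the cadherin of endothelial junctions, had 6.56 RPKM in KO and 0.173 RPKM in WT (2.69), with a member 3053 bp away that was 89.3% covered.

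Serinc3, a membrane protein of the serine incorporator family, had 79.7 RPKM in KO and 12.8 RPKM in WT (2.55). It showed the largest ratio among near genes at 1 RPKM or more in WT. Its member was 29.6% covered, and the overlapping 0610039K10Rik was higher too (1.28). Rpl39l, a testis-enriched copy of a ribosomal protein gene, had 14.8 RPKM in KO and 2.06 RPKM in WT (2.37), 11215 bp from a member with a peak score of 307.1. Ept1, the phosphotransferase that makes phosphatidylethanolamine, had 10.6 RPKM in KO and 1.42 RPKM in WT (2.27). The member over its start, chr5:30555352-30560402, was 15.1% covered.

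Creb3, a transcription factor held in the endoplasmic reticulum, stood at 30.5 RPKM in KO and 6.89 RPKM in WT (2.00). Gpx8, a peroxidase of the endoplasmic reticulum, stood at 6.47 RPKM in KO and 0.910 RPKM in WT (1.97). Gm13152, the zinc finger gene Zfp982 in RefSeq, stood at 13.9 RPKM in KO and 3.40 RPKM in WT (1.76). These 3 genes lay 6071 to 18589 bp from their members, which were 21.7%, 100% and 79.8% covered. Hyal1, a lysosomal hyaluronidase, had 19.5 RPKM in KO and 5.15 RPKM in WT (1.74). Its member, chr9:107491327-107494201, was 4.59% covered.

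The same member overlapped Ifrd2, a regulator of translation, which was lower, with 25.4 RPKM in KO and 58.0 RPKM in WT (-1.16). So 1 member had near it genes that were higher and a gene that was lower. The lowest ratio was that of A230050P20Rik, known as Shfl, an interferon-induced inhibitor of ribosomal frameshifting, with 3.00 RPKM in KO and 21.8 RPKM in WT (-2.51). A transcript named only NR_030494, annotated in the table as mmu-mir-715, had 216.8 RPKM in KO and 779.3 RPKM in WT (-1.84). It lay inside chr17:39979869-39985795, a member that was wholly covered and called in KO chromatin. Tmem125, a membrane protein, had 2.74 RPKM in KO and 7.71 RPKM in WT (-1.22), next to a wholly covered member also called in KO chromatin. Ppp1r9a, which encodes neurabin, completed the 5 lower genes with 1.18 RPKM in KO and 3.38 RPKM in WT (-1.01). Tagap (-0.87), Pcolce2 (-0.83) and Ier2 (-0.82) followed without reaching 2-fold.

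**Figure D5:**
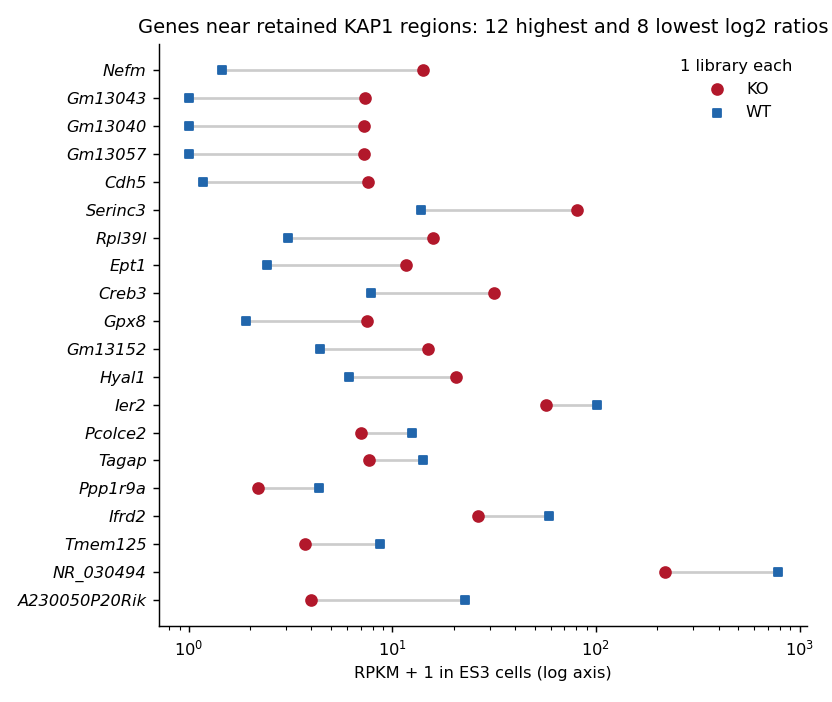
RPKM + 1 (log axis) in KO (red circles) and WT (blue squares) ES3 cells, 1 library each, for the 12 highest and 8 lowest log2 ratios among 137 measured genes with a start within 20 kb of a member. The 3 Pramel-family genes are listed at 0 in WT, and the lowest 5 genes are at least 2-fold lower in KO.

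Higher and lower calls were both more frequent close to members, over few genes and with wide intervals that overlap. Of 32 measured genes within 5 kb of a member, 9 were higher (28.1%, 15.6 to 45.4) and 3 lower (9.38%, 3.24 to 24.2). Beyond 5 kb it was 17 (16.2%, 10.4 to 24.4) and 2 (1.90%, 0.524 to 6.68) of 105. Over all measured genes it was 12.5% and 3.18%. Of 12 measured genes whose start lay inside a member, 3 were higher (Ept1, Nnat and Rprl2), or 25% (8.89 to 53.2). In the same 12, 1 was lower (8.33%), and their median was 0.80. Among them were H2-Q9 and H2-Q6, class I histocompatibility genes, with 1.84 and 1.10 RPKM in KO and 0.610 and 0.218 RPKM in WT, and Csprs with 3.31 RPKM in KO and 1.25 RPKM in WT. These 3 lie in wholly or nearly wholly covered members, and each belongs to a family of similar copies.

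Imprinted genes are those expressed from 1 parental allele. Of 75 in the list, 63 were in the table and 7 lay near members: Meg3, Nnat, Blcap, Gnas, Nespas, Ppp1r9a and Cdh15. Over all genes in the table, 196 of 17818 lay near members, and the difference was not tested. Of the 6 measured, Nnat and Gnas were at least 2-fold higher, Ppp1r9a was lower and 3 were within 2-fold, with a median of 0.04. Over all measured genes, 12.5% were higher and 3.18% lower. The Wilson intervals of the imprinted shares began at 9.68% for higher and 3.01% for lower calls. Both intervals thus held the share over all measured genes. Another 7 imprinted genes, Igf2, Kcnq1, Mest, Copg2, Peg3, Usp29 and Fkbp6, lay near WT-only regions with a KAP1 peak.

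Nnat, a paternally expressed membrane proteolipid gene, lies within an intron of Blcap. Its RNA was at 33.1 RPKM in KO and 10.4 RPKM in WT (1.58), and that of Blcap at 19.8 RPKM in KO and 13.8 RPKM in WT (0.49). The member there has 297 bp, while its peak runs over 1833 bp, from 157384869 to 157386701. Gnas, which encodes the stimulatory G protein alpha subunit, had 41.7 RPKM in KO and 16.0 RPKM in WT (1.33), and its antisense transcript Nespas 1.61 RPKM in KO and 2.46 RPKM in WT (-0.41). Whether strand was used in counting is not given in the sources used here, so overlapping transcripts cannot be told apart. The Gnas member, chr2:174122358-174126803, was 37.5% covered with a score of 74.6.

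Meg3, a maternally expressed non-coding RNA, had 2 members. The one 9435 bp upstream of its start, chr12:110763645-110769775, was 76.6% covered and had a score of 577.5. The one over its start, chr12:110778328-110780215, was 8.37% covered and had 69.2. Meg3 RNA was at 10.1 RPKM in KO and 14.8 RPKM in WT (-0.51). At the H19 transcript, the start listed for Mir675 lay 1105 bp from chr7:149764157-149770139, 57.1% covered with a score of 152.1 and its KAP1 bases wholly covered. The Mir675 entry had 6.88 RPKM in KO and 3.21 RPKM in WT (0.91). The member of Cdh15, a cadherin of muscle, was 24.6% covered with a score of 327.5, and Cdh15 was at 0.460 RPKM in KO and 0.461 RPKM in WT.

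Zinc finger genes, the family that includes the KAP1 recruiters, were near members in 11 cases of 394 by deposited or RefSeq symbol, and 10 were measured. At 2-fold, 3 were higher (10.8% to 60.3% by the Wilson interval, against 12.5% of all genes), Gm13152 (1.76) among them. Zfp629 had 2.63 RPKM in KO and 0.730 RPKM in WT (1.07), and Zfp600 6.79 RPKM in KO and 2.88 RPKM in WT (1.01). None was 2-fold lower, and the median was 0.66. By deposited symbol alone it was 8 of 352 genes, 7 measured and 2 higher, with a median of 0.53. Gm13157 (0.85), Zfp318 (0.79), Zfp979 (0.53), Gm4979, now Zfp937 (0.47), Zfp27 (0.26), Zfp11 (0.11) and Zfp367 (-0.61) did not reach 2-fold, and Zfp541 was under 1 RPKM. Members overlapped the bodies of Zfp629 (28.3% covered, score 342.1), Zfp11 (10.7%, 208.4), Zfp420 (59.1%, 60.0), Gm13157, now Zfp984 (99.7%, 50.9), and Zfp979 (96.9%, 53.1). The 2 with high scores were the least covered. Of 24 silencing partners, 15 genes of the 2-cell stage and 20 germline genes found in the table, none had its start near a member. Over all genes it was 196 of 17818, so none in such short lists is not read as a result.

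In MEFs, whose chromatin was not profiled, 108 of the same genes were measured. At 2-fold, 1 was higher in KO (0.926%) and 5 were lower (4.63%), close to 0.981% and 4.84% of all 10805 measured MEF genes. Rpl39l was the higher one, with 36.9 RPKM in KO MEFs and 14.1 RPKM in WT MEFs (1.32). It was thus at least 2-fold higher in both KO libraries. Cpxm1 (0.95), Mrps10 (0.87) and the NR_030494 transcript (0.76) followed. The lower genes were 2610005L07Rik (-1.45), 6820431F20Rik (-1.35), Nid1 (-1.23), Rc3h1 (-1.16) and Dnm1l (-1.14). Nid1, a basement membrane linker, had 66.2 RPKM in KO MEFs and 157.1 RPKM in WT MEFs, while in ES3 cells it had 53.0 RPKM in KO and 29.4 RPKM in WT (0.83). Of 10 fibroblast markers, all were at 1 RPKM or more in both MEF libraries.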

How the data were processed

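The submitters' processing notes name Bowtie and the mm9 build. Versions, the read counter and the region caller were not given in the sources used here. RPKM per RefSeq transcript were deposited by the authors, with a KO to WT ratio that was not used. The deposited H3K9me3 lists give positions without a value, and the deposited KAP1 peaks carry a score of unstated scale. The deposited list of WT-only regions held the 19057 WT regions without KO overlap. Each condition is 1 library or list, and depth is unknown.

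Members and gene lists were chosen with earlier results of these data known. Regions overlapped at 1 bp or more. Coordinates are mm9, 1-based. Each symbol was represented by its transcript of highest mean, and log2 ratios used a pseudocount of 1 RPKM, a filter at 1 RPKM in either library and a 2-fold call. The ES table's columns are headed WT and KO and were read as ES3, since no other ES pair carries both labels. RefSeq names (GRCm38.p6) matched 22110 of 22631 ES3 transcripts; 32 of 196 near genes carry another symbol there. Named items follow a rule: the 8 highest scores, 6 widest members, closest cases at each threshold, listed imprinted and zinc finger genes, the 12 highest and 8 lowest ES3 ratios, the 4 highest and 4 lowest MEF ratios and the 4 highest scores in KO chromatin; a few others were named after their values were seen. Other overlaps, peak thresholds, windows, pseudocounts, filters and centring were tried. Shares have Wilson 95% intervals. Scripts used Python 3.11.15, pandas 2.3.3 and scipy 1.17.1 and were tested on simulated data.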

Additional observations from a re-analysis of the deposited data

How the results depend on the processing

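A count was taken as kept within 1.5 times its value, and a share or median within its own 95% interval. By these limits 38 of 47 alternatives kept their value and 9 moved it. Members numbered 381 to 646 under other overlap rules and peak lists, their median KO coverage ran from 69.3% to 74.1% and their median width from 3106 to 3344.5 bp. The share of member peaks called against KO chromatin was 65.6% for scores above the list's median of 59.7, against 57.7% for all. The number of ES3 genes near members past 2-fold, 31, became 15 within 10 kb, 60 within 50 kb, 109 within 100 kb, 47 with a pseudocount of 0.1 RPKM, 19 with 5 RPKM and 15 at 3-fold. The share higher in those windows was 20.7%, 15.2% and 15.0%, against 12.5% of all measured genes. With a pseudocount of 0.1 RPKM it was 30.7%, against 17.7% of all measured genes. With 5 RPKM it was 11.7%, against 4.47%, and at 3-fold 9.49%, against 4.95%. Centring on the median of all genes left 26, of which 21 were higher (15.3% of measured near genes, against 10.8% of all). In MEFs the 6 genes became 12 with a pseudocount of 0.1 RPKM and 3 with 5 RPKM, which changed the share of higher calls among them to 33.3%, against 16.7%. At those settings 1.85% and 0.926% were higher, against 2.02% and 0.324% of all measured MEF genes. Lower were 9.26% and 1.85%, against 9.75% and 0.805%. Causes were not tested. Chosen after seeing the data, leaving out members called in KO chromatin kept 527 members and 27 genes, and leaving out chromosomes 1, 6 and 14 kept 470 members and 27 genes. Of the measured genes near those members, 18.8% and 18.9% were higher, against 12.5% of all measured genes. No paired analysis was possible because each group holds 1 library. Without replicates or read counts, a region missing from the KO list is not shown to lack the mark, and a retained one may carry less of it.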
